A study of Mus musculus with 16 samples.

Results

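Genes that mark atypical, cGMP-based olfactory neurons, 6 in number, were looked up in an array study of sorted olfactory mucosa cells, and 5 of the 6 were measured. They were chosen by gene symbol in the platform annotation and are 5 of the 19505 named genes. Gucy2d, Pde2a, Cnga3 and Car2 are associated with necklace neurons, and Gucy1b2 with type B cells, which also carry Trpc2. Each of the 5 had a single probe set. For Trpc2 no row was named by symbol, synonym, Entrez identifier or accession, so it was not analysed here.

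Most olfactory sensory neurons turn odor into cAMP, through the G protein subunit Gnal, the adenylyl cyclase Adcy3 and a channel that contains Cnga2. Necklace neurons, named after the ring of glomeruli they supply at the back of the olfactory bulb, use cGMP instead. Their receptor guanylyl cyclase GC-D (Gucy2d) makes cGMP, the phosphodiesterase Pde2a degrades it, the channel subunit Cnga3 opens on it, and carbonic anhydrase II (Car2) links them to carbon dioxide through bicarbonate. Type B cells are a separate, sparse set of neurons of the main olfactory epithelium with a soluble guanylyl cyclase subunit (Gucy1b2) and the cation channel Trpc2, and have been linked in mice to the sensing of low oxygen.

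The mice carried S100a5-tauGFP on C57BL/6, a reporter in which GFP follows S100a5, a calcium-binding protein gene of olfactory neurons that rises with stimulation. All 24 mice, of both sexes and 7 to 12 weeks old, were kept in clean-air chambers for 40 hours, and after 26 hours received 10-second pulses every 20 minutes of isoamyl acetate (odor) or of filtered air (vehicle). Cells were sorted by fluorescence from pools of 3 mice, and each of the 8 pools gave 2 libraries, which makes 4 groups of 4: odor titled GFP+, odor titled GFP-, vehicle titled GFP+ and vehicle titled GFP-. The assay asks which receptors mark the neurons that respond to the odor.

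Titles and cell type field contradict each other on GFP in 16 of 16 libraries, so the libraries are named here by title. S100a5 averaged 15.49 ± 0.31 in odor titled GFP+ and 16.75 ± 0.18 in odor titled GFP- (SD, n = 4 each), which is against the order the titles give. Without odor it averaged 15.21 ± 0.47 where titled GFP+, against 16.39 ± 0.20 where titled GFP-. Titled GFP+ minus titled GFP- was -1.25 with odor and -1.18 in vehicle (limma adjusted p = 0.000222 and 0.000442). S100a5 was lower where titled GFP+ in 8 of 8 pools. Every sort difference below is titled GFP+ minus titled GFP-, and its sign is the opposite one under the cell type field. All values are signals on the log2 scale. Negative control probe sets had a median of 5.15 to 5.56 in the libraries titled GFP+ and 5.30 to 5.67 in those titled GFP-, and their 95th percentile lay at 9.39 to 10.01 and at 9.40 to 10.09 in the same order.

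The defining pair of necklace genes, Gucy2d and Cnga3, was not seen above background. Gucy2d gave 3.59, 3.48, 3.33 and 3.36 in odor titled GFP+ and 3.18, 3.33, 3.26 and 3.14 in odor titled GFP-. In vehicle it gave 3.53, 3.47, 3.94 and 3.33 in titled GFP+ and 3.01, 3.14, 3.34 and 3.47 in titled GFP-. It lay below the median negative control in 16 of 16 libraries, above at most 19.4% of the negative controls of its array. Cnga3 ran from 3.16 to 3.58 in odor titled GFP+, from 3.19 to 3.51 in odor titled GFP-, from 3.08 to 3.26 in vehicle titled GFP+ and from 3.15 to 3.70 in vehicle libraries titled GFP-. It too was below that median in 16 of 16, above at most 15.2% of the negative controls. Neither gene was called between the sorts (limma adjusted p = 0.309 with odor and 0.133 in vehicle for Gucy2d, 0.96 and 0.171 for Cnga3). No difference is given for either, since signals at background do not measure RNA, and a probe set at background does not show that the RNA is missing. The values of Pde2a and Car2 therefore stand without the genes that define necklace neurons, and are given for the genes and not for that cell type.

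**Figure D1:**
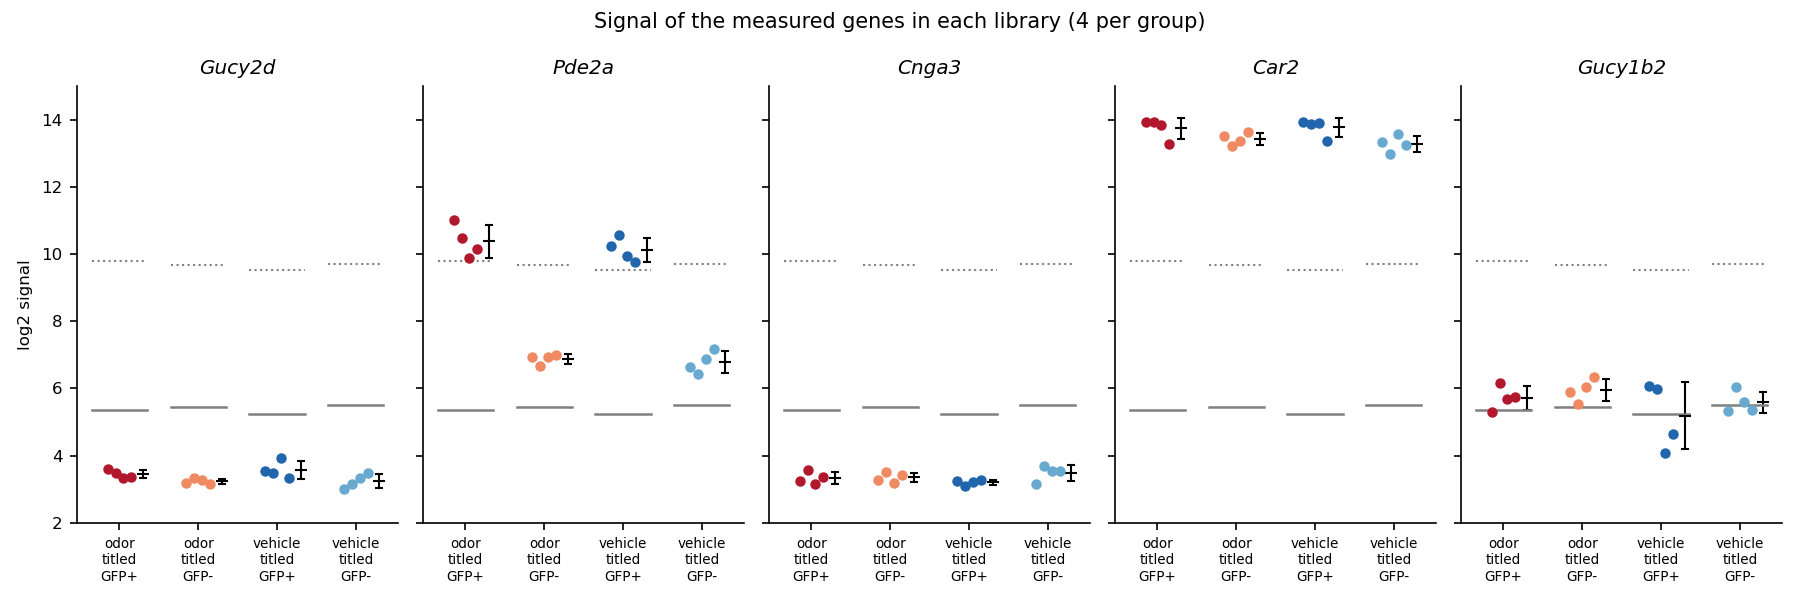
Log2 signal of Gucy2d, Pde2a, Cnga3, Car2 and Gucy1b2 in each of the 16 libraries (points, in the order of replicates 1 to 4), with the mean and SD of each group at its right. The solid grey line is the group mean of the arrays' median negative control and the dotted line that of their 95th percentile: Gucy2d and Cnga3 lie below the solid line throughout, Car2 above the dotted line throughout, and Pde2a is above the dotted line in the libraries titled GFP+ and between the lines in those titled GFP-.

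Pde2a was the only 1 of the 5 genes called between the sorts, being higher in libraries titled GFP+ by more than 3 on the log2 scale. With odor it gave 11.02, 10.48, 9.89 and 10.15 in titled GFP+ and 6.93, 6.67, 6.93 and 6.99 in titled GFP-. In vehicle it gave 10.22, 10.57, 9.95 and 9.75 in titled GFP+ and 6.62, 6.44, 6.88 and 7.18 in titled GFP-. The lowest library titled GFP+, at 9.75, stood above the highest titled GFP-, at 7.18, so the sorts did not overlap under either treatment. The difference was 3.50 with odor (SE 0.23, 95% interval 3.02 to 3.99, 11.4-fold, limma adjusted p = 4.71e-09) and 3.34 in vehicle (SE 0.23, 2.85 to 3.83, limma adjusted p = 9.66e-09). All 8 pools pointed the same way, by 2.56 to 4.13, and the exact two-sided sign-flip permutation test gave p = 0.00781, the smallest that 8 pools allow. The signal was above the median negative control in 16 of 16 libraries, and above the 95th percentile in all 8 titled GFP+ and 0 of the 8 titled GFP-. With that percentile as the floor of the libraries titled GFP-, a choice made after seeing the data, the rise was at least 1.62-fold with odor and 1.33-fold in vehicle. The 11.4-fold thus rests on taking signals above the median negative control as measured. Pde2a encodes a phosphodiesterase that cGMP itself stimulates and that breaks down cAMP as well as cGMP. Outside necklace neurons it is known from brain neurons, endothelial cells and macrophages. Libraries of sorted cells cannot tell fewer cells of a type from less RNA per cell.

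The start regions shown are every window with a match to the searched letters, from Pde2a and Cnga3, and the gene starts of Pde2a and Gucy2d for comparison of a called gene with one at background. RefSeq windows of build GRCm38.p6 were found for 5 of the 6 genes, 10 windows in all, 5 of them for Pde2a. Each line gives the 250 bases before an annotated start, 5′ to 3′ on the plus strand, with matches to the searched letters in capitals. The windows are chr7:101421441-101421690 (Pde2a, first start of the gene), chr7:101455812-101456061 (Pde2a, a start inside the gene), chr1:37218028-37218277 and chr1:37218955-37219204 (Cnga3) and chr7:98440166-98440415 (Gucy2d, its start).
Pde2a first start: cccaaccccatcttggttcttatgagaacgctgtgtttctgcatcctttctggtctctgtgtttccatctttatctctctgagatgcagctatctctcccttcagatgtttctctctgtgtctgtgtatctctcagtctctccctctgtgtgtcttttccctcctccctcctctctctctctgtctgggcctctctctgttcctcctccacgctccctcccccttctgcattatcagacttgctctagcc
Pde2a inner start: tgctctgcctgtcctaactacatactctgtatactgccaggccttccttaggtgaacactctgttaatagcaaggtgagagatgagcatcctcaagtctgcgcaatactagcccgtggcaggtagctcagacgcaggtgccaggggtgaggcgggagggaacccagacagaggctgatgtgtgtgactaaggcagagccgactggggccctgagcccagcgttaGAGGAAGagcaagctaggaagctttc
Cnga3 upstream window: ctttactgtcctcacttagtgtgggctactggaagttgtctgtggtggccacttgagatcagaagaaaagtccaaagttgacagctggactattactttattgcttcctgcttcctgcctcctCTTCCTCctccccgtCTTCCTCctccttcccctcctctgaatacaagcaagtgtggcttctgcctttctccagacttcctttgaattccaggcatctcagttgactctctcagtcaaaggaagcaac
Cnga3 downstream window: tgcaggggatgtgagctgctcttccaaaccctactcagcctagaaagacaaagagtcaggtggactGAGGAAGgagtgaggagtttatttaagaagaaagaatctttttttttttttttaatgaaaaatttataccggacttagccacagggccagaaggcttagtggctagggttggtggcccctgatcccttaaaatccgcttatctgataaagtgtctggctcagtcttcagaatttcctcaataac
Gucy2d start: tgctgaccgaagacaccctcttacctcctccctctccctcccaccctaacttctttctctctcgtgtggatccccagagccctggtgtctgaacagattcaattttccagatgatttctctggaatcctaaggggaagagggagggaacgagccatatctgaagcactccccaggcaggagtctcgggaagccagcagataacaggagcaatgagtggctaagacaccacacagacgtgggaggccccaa

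The letters searched on both strands were TCCC and GGGA spaced 2 bases apart, bound by EBF factors of olfactory neurons, TAATTA of homeodomain factors, TGANTCA of AP-1, TGACGTCA of CREB and GAGGAAG, a core bound by PU.1 of myeloid cells. Over all 32851 windows they were found in 0.779%, 4.84%, 6.75%, 1.55% and 10.6% in that order. GAGGAAG was the only one matched in the 10 windows. It stood once in the inner Pde2a window, at -26 to -20 from the start, and in none of the other 4 Pde2a windows. In Cnga3, which was at background, its reverse complement CTTCCTC stood at -127 to -121 and at -112 to -106 of the upstream window, and GAGGAAG at -184 to -178 of the downstream window. A match of this length is a description of the sequence, and the arrays do not tell which start was used.

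Read against the background, 1 of 5 measured members was called with odor and 1 of 5 in vehicle, while 20.9% of all 22206 probe sets were called with odor (11% higher, 9.86% lower) and 17.3% in vehicle (10.2% higher, 7.16% lower). A share of 1 in 5 is close to that background, so the count by itself is no result about these genes. The size was less common: 2.15% of named genes had a larger rise with odor and 2.19% in vehicle. The median difference of the 5 fell on Gucy2d, a gene at background, under both treatments, so it does not describe the set. Over all named genes the median was -0.14 with odor and -0.12 in vehicle.

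**Figure D2:**
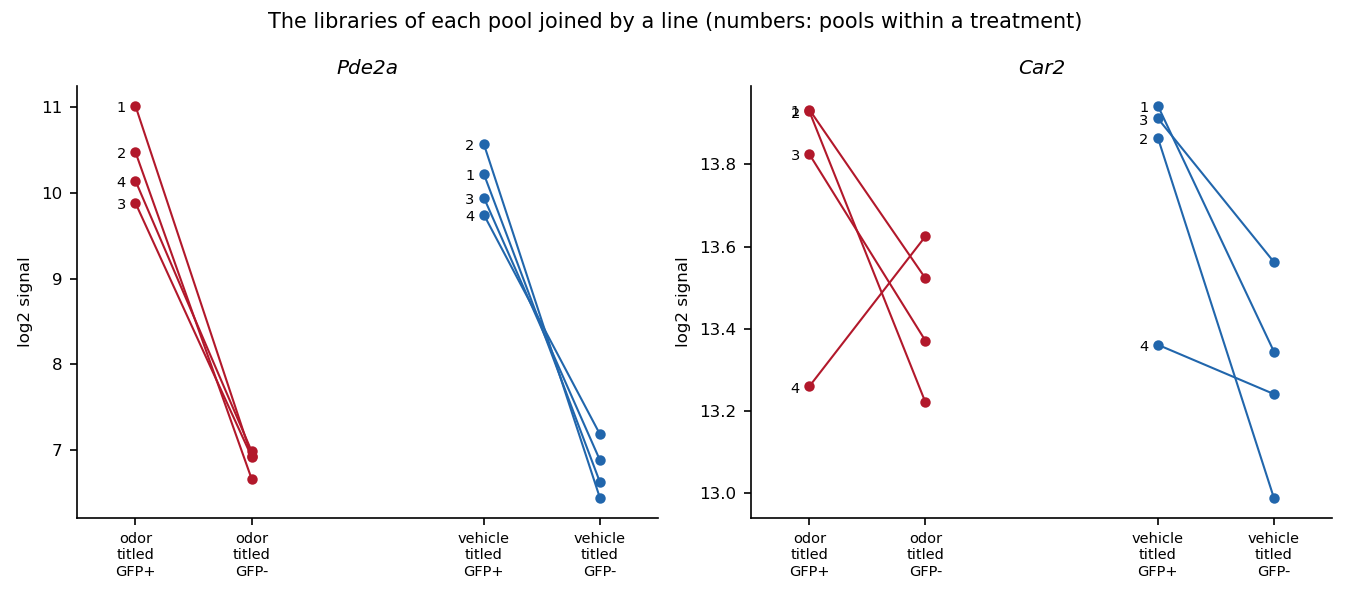
Log2 signal of Pde2a (left) and Car2 (right) in the libraries of each pool, titled GFP+ at the left end of each line and titled GFP- at the right, odor in red and vehicle in blue; the axes do not start at 0. Pde2a falls along all 8 lines by 2.56 to 4.13, while Car2 falls along 7 and rises along the line of odor pool 4.

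Car2 was above background in every library, and its sort difference was not called. With odor it gave 13.93, 13.93, 13.82 and 13.26 in titled GFP+ and 13.52, 13.22, 13.37 and 13.62 in titled GFP-. In vehicle it gave 13.94, 13.87, 13.91 and 13.36 in titled GFP+ and 13.34, 12.99, 13.56 and 13.24 in titled GFP-. Each library was above the 95th percentile of its negative controls, and the groups overlapped through replicate 4, the lowest library titled GFP+ in both treatments. The difference did not pass with odor (0.30, SE 0.18, 95% interval -0.08 to 0.68, limma adjusted p = 0.254) or in vehicle (0.49, SE 0.18, 0.11 to 0.87, limma adjusted p = 0.0759). Car2 was higher in titled GFP+ in 7 of the 8 pools, with an exact two-sided sign-flip p = 0.0312. Without vehicle titled GFP+ replicate 4 the vehicle difference was 0.62 and passed (limma adjusted p = 0.0262). It also passed at 0.68 with arrays centred on mature neuron markers (limma adjusted p = 0.0284), and with odor the sign turned to -0.06 under median centring. Carbonic anhydrase II is abundant in red cells and in many epithelia as well as in neurons, and is no marker of necklace neurons by itself.

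Gucy1b2, the soluble cyclase subunit of type B cells, stayed near background. With odor it gave 5.29, 6.17, 5.67 and 5.73 in titled GFP+ and 5.90, 5.53, 6.03 and 6.33 in titled GFP-. In vehicle it gave 6.07, 5.99, 4.07 and 4.63 in titled GFP+ and 5.34, 6.03, 5.58 and 5.37 in titled GFP-. It was above the median negative control in 11 of 16 libraries and above the 95th percentile in 0, and the groups overlapped. The difference was -0.23 with odor (SE 0.36, 95% interval -0.99 to 0.53, limma adjusted p = 0.684) and -0.39 in vehicle (SE 0.36, -1.15 to 0.37, limma adjusted p = 0.50). Vehicle titled GFP+ alone spanned 4.07 to 6.07. Without its replicate 3 the vehicle difference was -0.01, and without its replicate 1 it was -0.68, neither called. Without odor titled GFP+ replicate 1 the odor difference was -0.09.

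Isoamyl acetate left no called difference in any member. In libraries titled GFP+, odor minus vehicle was 0.26 for Pde2a (95% interval -0.23 to 0.75), -0.03 for Car2 (-0.41 to 0.35) and 0.53 for Gucy1b2 (-0.24 to 1.29), with limma adjusted p from 0.968 to 0.996. In libraries titled GFP- it was 0.10 for Pde2a (-0.39 to 0.58), 0.15 for Car2 (-0.23 to 0.53) and 0.37 for Gucy1b2 (-0.39 to 1.13), with limma adjusted p = 1.0 for each. The count was 0 of 5 in each sort, against 0.00901% of all probe sets called in titled GFP+ and 0.018% in titled GFP-. At an unadjusted limma p below 0.05 it was also 0 of 5 in each sort. Of the 22206 probe sets, 1072 passed that threshold in titled GFP+ and 733 in titled GFP-. These intervals leave room for changes of up to 0.75 in Pde2a, and a p that misses the threshold does not show that the odor had no effect.

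The sort difference of the members was not called as different between the treatments. For Pde2a, odor minus vehicle of the sort difference was 0.16 (SE 0.33, 95% interval -0.52 to 0.85, limma adjusted p = 1.0). Car2 gave -0.18 (-0.72 to 0.35) and Gucy1b2 0.16 (-0.92 to 1.23), and 0 of 5 members were called, beside 0.0045% of all probe sets. At an unadjusted limma p below 0.05 the count was also 0 of 5, beside 653 of all 22206 probe sets. By mean level, Pde2a was highest in odor titled GFP+ (10.38 ± 0.49), then in vehicle titled GFP+ (10.12 ± 0.36). It was lower in odor titled GFP- (6.88 ± 0.14) and lowest in vehicle titled GFP- (6.78 ± 0.32, SD, n = 4 each). The neighbours within a sort did not differ beyond their spread, and the step between the sorts did.

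**Figure D3:**
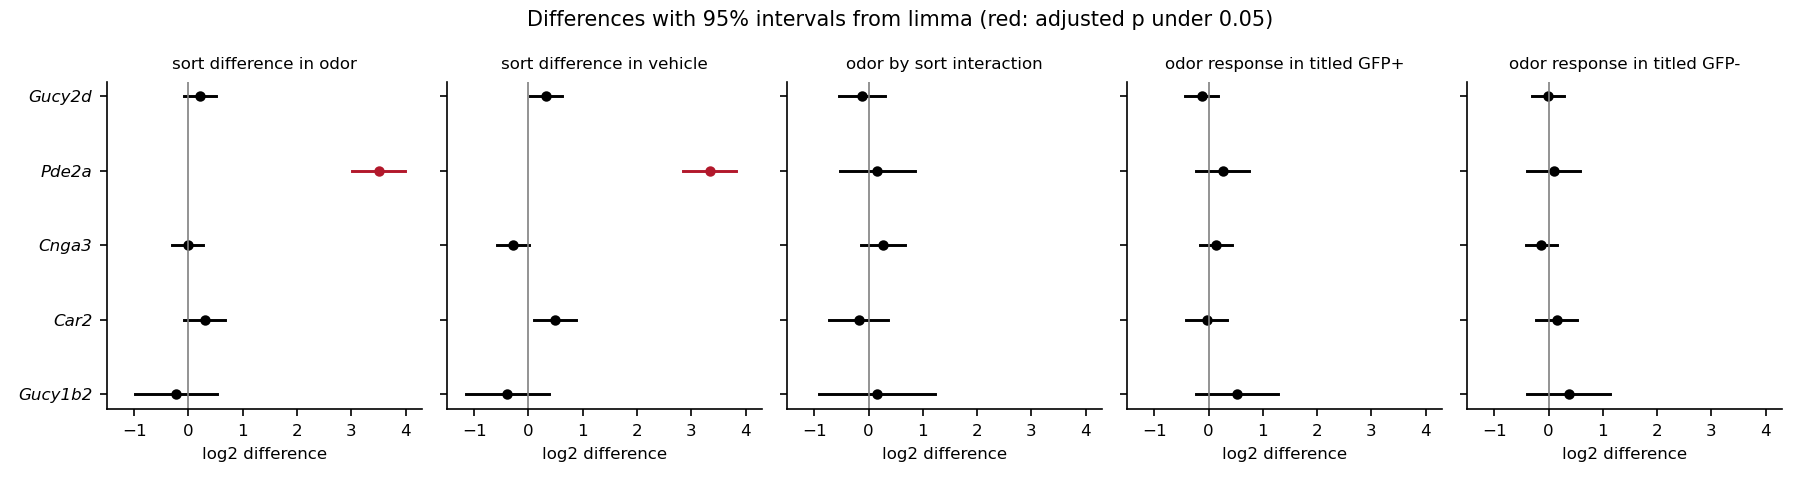
Log2 difference of each measured gene in the 5 comparisons, with 95% intervals from limma, red where the adjusted p is under 0.05. The intervals of Pde2a in both sort differences, 3.02 to 3.99 and 2.85 to 3.83, stand apart, and no interval in the odor responses or the interaction is called. The intervals of Gucy2d and Cnga3 are of signals at background.

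The profile of Pde2a over the 16 libraries was most like those of Sh3bp5, Gpx1 and Plp2. Likeness was the root mean square difference of profiles, each less its own mean, which was 0.25 for Sh3bp5, 0.26 for Gpx1 (glutathione peroxidase) and 0.26 for Plp2. These genes were picked by likeness in these same libraries, so sort differences near that of Pde2a follow from the choice. The sort difference of Sh3bp5 was 3.56 with odor and 3.36 in vehicle. That of Gpx1 was 3.29 and 3.48, and that of Plp2 3.13 and 3.17. For Car2 the closest were Gdf11 (0.17), Hdac2 (0.18) and Crlf3 (0.18), and for Gucy1b2 they were Chrna2 (0.37), Itgb3bp (0.38) and Cox7a2 (0.39). Gucy2d was closest to Dgcr2, Abca8b and Ireb2 (0.12 to 0.14) and Cnga3 to Fnip1, Pkn2 and Alx4 (0.11 to 0.13), profiles that were nearly flat.

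Other genes of cGMP production gave mostly low signals. Of 19 measured guanylyl cyclases, nitric oxide synthases, peptide ligands and activators, 0 rose and 3 fell in titled GFP+ with odor. In vehicle 0 rose and 1 fell. Of all probe sets, 20.9% were called with odor and 17.3% in vehicle, so these counts by themselves are no result about the list. Of the 19, 13 were above the median negative control in no library. The median difference was -0.16 with odor and -0.20 in vehicle. Gucy2c, the gut receptor for guanylin, fell by 1.00 with odor (SE 0.18, limma adjusted p = 0.000496) and by 0.66 in vehicle (SE 0.18, limma adjusted p = 0.0167), at 5.63 in odor titled GFP+ and 6.63 in odor titled GFP-. The natriuretic peptide gene Nppc fell by 0.80 with odor (limma adjusted p = 0.0189) and gave -0.41 in vehicle. Nppb, a related peptide gene, fell by 0.53 with odor (limma adjusted p = 0.0236) but was below the median negative control in 16 of 16 libraries. Centring on mature neuron markers left 1 of these genes lower with odor and 0 in vehicle, and median centring made 13 and 17 lower.

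Pde3b and Vasp rose and Pde10a fell among the other genes that act on or answer to cGMP. Of 21 measured effectors and other phosphodiesterases, 2 rose and 2 fell with odor, and 2 rose and 1 fell in vehicle, with medians of 0.09 and -0.03. These counts are near the share of all probe sets called, 20.9% with odor and 17.3% in vehicle. Pde3b, a phosphodiesterase that cGMP inhibits, averaged 6.12 in odor titled GFP+ and 4.53 in odor titled GFP-, where it was below the median negative control in 4 of 4 libraries. Against that floor its rise was at least 1.60-fold with odor and 1.47-fold in vehicle. The call is of the difference without the floor (limma adjusted p = 0.000926 and 0.000693). Pde10a, which breaks down both nucleotides, fell by 1.23 with odor and by 1.11 in vehicle (SE 0.21 each, limma adjusted p = 0.000285 and 0.00081). Vasp, an actin regulator phosphorylated by cGMP-dependent kinase, rose by 0.57 with odor and 0.59 in vehicle (limma adjusted p = 0.0288 and 0.0292), a call lost under median centring. The channel gene Hcn2, gated by cyclic nucleotides, fell by 0.46 with odor (limma adjusted p = 0.0268), a call lost with centring on mature neuron markers. The kinases Prkg1 and Prkg2 and the channel subunits Cnga1 and Cngb3 were above the median negative control in no library.

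The canonical cAMP genes were above the median negative control in 16 of 16 libraries, except the channel subunit gene Cngb1 in 12. Gnal averaged 17.99 in odor titled GFP+, 18.15 in odor titled GFP-, 18.09 in vehicle titled GFP+ and 18.20 in vehicle libraries titled GFP-. Adcy3 averaged 16.84 in odor titled GFP+ and 17.11 in odor titled GFP-, and Cnga2 averaged 16.56 and 16.86 in the same order, with no call. Of 16 canonical genes 0 rose and 3 fell under each treatment, with medians of -0.27 with odor and -0.16 in vehicle. The count is near the share of all probe sets called, 20.9% with odor and 17.3% in vehicle. The shares called lower were 9.86% and 7.16%. Pde1c, the calmodulin-stimulated phosphodiesterase of olfactory cilia, fell by 0.84 with odor and by 0.66 in vehicle (SE 0.12 each, limma adjusted p = 6.43e-05 and 0.000817), opposite in sign to Pde2a. The chloride channel gene Ano2 fell by 0.51 and by 0.45, and the exchanger gene Slc24a4 by 0.49 and by 0.58. Median centring made 14 of the 16 lower under each treatment, and centring on mature neuron markers left 1. Of 6 calcium sensors of the hippocalcin and visinin family, some of which bind guanylyl cyclases, 0 rose and 1 fell with odor, Ncs1 by 0.75 (limma adjusted p = 0.0299, lost with that centring), and 0 were called in vehicle, where Ncs1 gave -0.28.

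Car1 and Gnai2 led the relatives of Car2 and the genes that work with Trpc2. Of 15 other carbonic anhydrases 1 rose with odor and 2 in vehicle, with 0 falling, beside 11% and 10.2% of all probe sets called higher. The red cell enzyme gene Car1 was below the median negative control in 4 of 4 odor and 3 of 4 vehicle libraries titled GFP-. Its rise was at least 23.3-fold with odor and 29.2-fold in vehicle (limma adjusted p = 2.44e-08 and 1e-08). Here and below, "at least" marks a fold against the median negative control as floor. Any limma p beside it is of the difference without that floor. Car8 was called higher in vehicle (limma adjusted p = 0.0374), at least 1.14-fold, but not with odor, and the call was lost with the pool as a block (limma adjusted p = 0.0746) and under median centring. Among 12 measured TRPC and vomeronasal transduction genes, 2 rose with odor and 2 fell, and 2 rose and 1 fell in vehicle. Over all probe sets, 20.9% were called with odor and 17.3% in vehicle. The risers were Gnai2 at 5.99 and 5.75 (SE 0.29 each) and Plcb2, at least 5.18-fold with odor and by 2.11 in vehicle, a G protein subunit and a phospholipase that leukocytes carry too. Trpc4 and Trpc1 fell with odor by 0.48 and by 0.39 (limma adjusted p = 0.0097 and 0.0409), calls lost with centring on mature neuron markers. Trpc5, below the median negative control in 16 of 16 libraries, was called lower in vehicle, a call lost with the pool as a block (limma adjusted p = 0.0524). Of 9 vomeronasal neuron markers, 8 were above that median in no library.

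The Ms4a receptors of necklace neurons are also genes of macrophages and lymphocytes. Of 16 measured Ms4a genes 9 rose and 1 fell with odor (Ms4a18, below the median negative control throughout) and 10 rose in vehicle, with Ms4a6c at least 11.3-fold and 14.0-fold, Ms4a4c at least 14.8-fold and 13.4-fold and Ms4a3 at least 4.31-fold and 3.57-fold higher. The call of 1 riser, Ms4a7, was lost with odor with the pool as a block. Over all probe sets, 11% were called higher and 9.86% lower with odor, and 10.2% and 7.16% in vehicle.

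Markers of several other cell types rose with Pde2a in the same libraries, and their part in its difference was not tested. List medians are of measured log2 differences, genes below background included. Beside the counts that follow, 11% of all probe sets were called higher with odor and 10.2% in vehicle. Of 15 macrophage markers 10 rose with odor and 12 in vehicle, 0 fell, and the medians were 1.17 and 1.69. Their log2 summed signal was 14.77 to 16.58 in odor titled GFP+ and 9.55 to 10.60 in odor titled GFP-, and 15.06 to 15.91 in vehicle titled GFP+ and 9.30 to 10.40 in vehicle libraries titled GFP-. Lyz2 rose by 6.88 with odor and 6.92 in vehicle. The integrin gene Itgam rose at least 127-fold with odor and 91.6-fold in vehicle, and Tyrobp rose at least 20.8-fold and 14.2-fold. Neutrophils carry Lyz2, Itgam and Tyrobp too. Lyz2 averaged 15.51 in odor titled GFP+, so it weighs heavily in the summed signal. Mrc1 was called under neither treatment and C1qc was not called with odor. The marker Cd163 was above the median negative control in no library. All 13 neutrophil markers rose under each treatment, with medians of 8.73 and 7.97 and Lcn2 at 9.59 and 9.07, and their log2 sum was 18.66 to 19.86 in odor titled GFP+, 9.75 to 11.45 in odor titled GFP-, 18.78 to 19.23 in vehicle titled GFP+ and 9.54 to 10.82 in vehicle libraries titled GFP-. Lymphocyte markers rose in 7 of 9 with odor and in 8 of 9 in vehicle, with Jchain at least 18.7-fold and 18.8-fold higher. Their log2 sum was 9.75 to 11.44 in odor titled GFP+, 7.53 to 7.67 in odor titled GFP-, 10.34 to 11.13 in vehicle titled GFP+ and 7.42 to 7.52 in vehicle libraries titled GFP-.

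Endothelial markers were called in both directions with odor and not at all in vehicle. Of 9 measured, 2 rose and 1 fell with odor, beside 20.9% of all probe sets called. In vehicle 0 were called by limma, beside 17.3% of all probe sets. There 0 also had an unadjusted limma p below 0.05, beside 6689 of the 22206 probe sets. The medians were 0.01 with odor and 0.07 in vehicle. Their log2 sum was 7.88 to 8.15 in odor titled GFP+, 7.89 to 8.06 in odor titled GFP-, 7.95 to 8.07 in vehicle titled GFP+ and 7.90 to 8.09 in vehicle libraries titled GFP-. Pecam1 (limma adjusted p = 0.0454, at least 1.08-fold) and Tek (limma adjusted p = 0.0302, at background in 16 of 16 libraries) were called higher, and both calls were lost under median centring. Vwf fell by 0.51, a call lost with centring on mature neuron markers. The defining Cdh5, Kdr, Tek, Emcn and Cldn5 were above the median negative control in no library.

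Red cells carry Car2, and of 17 listed red cell markers 9 were measured. These markers rose in 5 of 9 with odor and in 7 of 9 in vehicle. Their log2 sum was 11.69 to 13.03 in odor titled GFP+, 10.12 to 10.35 in odor titled GFP-, 12.69 to 13.45 in vehicle titled GFP+ and 10.12 to 10.53 in vehicle libraries titled GFP-. Rhag rose at least 7.49-fold and 9.27-fold and Slc4a1 by 2.64 and 3.35 on the log2 scale, with Car1 as above. The red cell factor gene Gata1 was called under neither treatment, and Klf1 and Epor were not called with odor. Ionocyte-like microvillar cell markers rose in 9 of 9 with odor and 8 of 9 in vehicle, with Foxi1 at 4.00 with odor and at least 21.3-fold higher in vehicle. Their log2 sum was 13.92 to 14.99 in odor titled GFP+, 11.04 to 11.58 in odor titled GFP-, 13.10 to 14.52 in vehicle titled GFP+ and 11.10 to 11.28 in vehicle libraries titled GFP-. Trpm5 microvillar markers rose in 11 of 11 under each treatment, with Trpm5 itself at least 10.7-fold and 9.36-fold higher. Beside the counts of these 3 cell types, 11% of all probe sets were called higher with odor and 10.2% in vehicle. The part of these cells in the Car2 signal was not tested.

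Many markers of early neurons rose too, though Dcx, Ncam1, Tubb3 and Dbn1 were called under neither treatment. Immature olfactory neuron markers rose in 9 of 15 with odor and in 10 of 15 in vehicle, where 1, Hdac9, fell (a call lost with centring on mature neuron markers). Cd24a rose at least 71.2-fold and 64.3-fold and Nhlh1 at least 11.7-fold and 19.8-fold. Their log2 sum was 17.42 to 17.79 in odor titled GFP+, 17.55 to 17.76 in odor titled GFP-, 17.68 to 17.92 in vehicle titled GFP+ and 17.54 to 17.78 in vehicle libraries titled GFP-, and these ranges overlapped. All 9 progenitor and cell cycle genes rose under each treatment, with Ube2c at least 13.5-fold and 15.8-fold higher. Of these, Neurog1 and Cdk1 were above the median negative control in no library. Neutrophil and lymphocyte markers rose in the same libraries, and which cells carried Cd24a and the cell cycle genes was not tested. Mature neuron markers rose in 0 of 19 and fell in 2, Pde1c and Ano2, with medians of -0.21 and -0.14, or 17 lower under each treatment after median centring. As deposited, 9.86% of all probe sets were called lower with odor and 7.16% in vehicle, so a fall of 2 is near that share. The shares called higher were 11% and 10.2%. Markers of supporting sustentacular cells rose in 9 of 12 under each treatment, with Krt18 at 4.12 and 3.56.

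**Figure D4:**
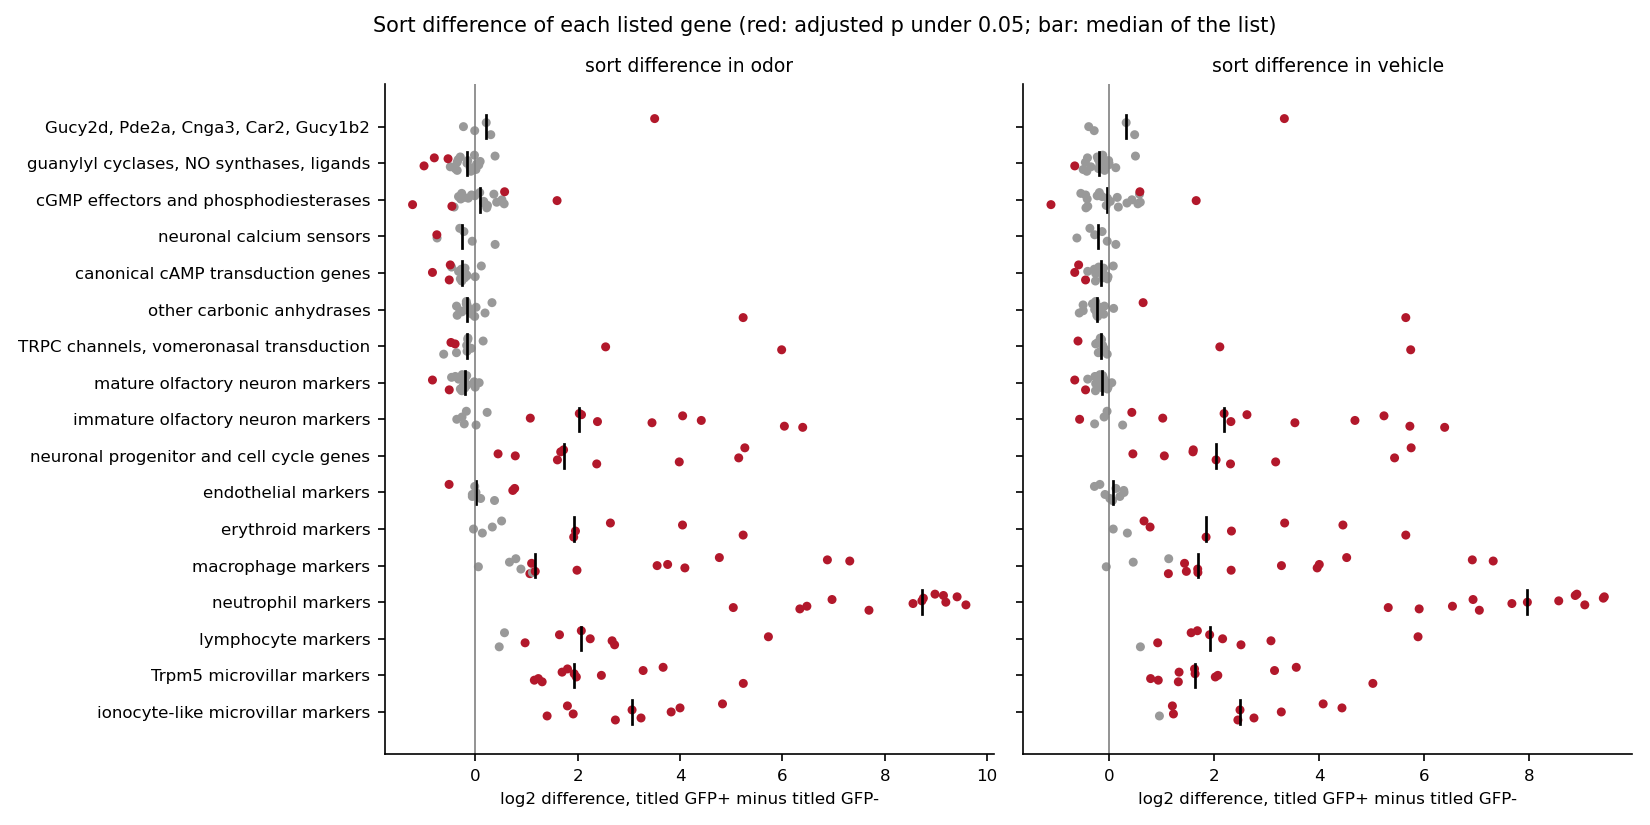
Sort difference (titled GFP+ minus titled GFP-, log2) of every measured gene in 17 gene lists, with odor at the left and in vehicle at the right; points are genes, red where limma's adjusted p is under 0.05, and bars are list medians. Pde2a is the red point of the top row at 3.50 and 3.34, within the range of the macrophage, erythroid, immature neuron and microvillar markers, while the lists of cGMP production, cGMP effectors, calcium sensors and cAMP transduction have medians between -0.27 and 0.09.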

How the data were processed

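RNA of 16 sorted libraries was hybridised to Clariom S mouse arrays. The deposited values are log2 signals, 1 per probe set and array, which the authors made in Affymetrix Expression Console, according to the submitters' processing notes. The software version, background correction and normalization are not given in the sources at hand. Of 28846 probe sets, 6640 controls were left out of the tests, 5222 of them negative controls, leaving 22206. The platform annotation names 19572 with 1 symbol, 0 with several and 2634 with none. Where a symbol had several probe sets, the highest mean was used.

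Groups came from the titles. limma (version 3.58.1, R 4.3.3) was fitted to 4 group means (12 residual degrees of freedom), with Benjamini-Hochberg adjustment over all 22206 probe sets and a threshold of 0.05, and was tested on simulated data. The 95% intervals are limma's. Values below the median negative control of an array are called background. No pair of arrays was identical. Arrays carry no depth, and 4 per group limit the precision. Replicates are separate pools of 3 mice.

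The 2 libraries of a pool come from the same mice, since 24 mice gave 16 libraries of 3 mice each, and deviated from their group means together (r from 0.16 to 0.40 across probe sets in 8 of 8 pools). The members and gene lists were chosen with earlier results of these data known. Named beside the members are, from each list, up to 3 called genes with the largest sort differences, or up to 2 as values, the 3 profiles most like each member, and S100a5. Genes outside this rule (Gnal, Adcy3, Cnga2, Cngb1, Hcn2, Trpc1, Trpc4, Ms4a7, Ms4a18, Hdac9, Mrc1, C1qc, Gata1, Klf1, Epor, Dcx, Ncam1, Tubb3, Dbn1 and those named as never above background) were named after their values were seen. Alternatives were other scalings, the pool as a replicate block, fewer groups, other priors and weights, a filter, a floor and leaving out each library.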

Additional observations from a re-analysis of the deposited data

Results flagged for a closer look

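Car2 had a library far from its group in both treatments. In odor titled GFP+, replicate 4 stood at 13.26, below the other 3 at 13.82 to 13.93, a gap of 0.839 of the group's range and past Dixon's 95% critical value for 4 samples. In vehicle titled GFP+, replicate 4 stood at 13.36, below the other 3 at 13.87 to 13.94, with a gap of 0.867 of the range, also past that value. Chance flags about 1 in 20 such groups, and 20 were tested, 5 genes in 4 groups.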

How the results depend on the processing

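Pde2a kept its direction and its call in both sort differences under the scalings, blocks, priors, weights, filter, median floor and left-out libraries tried, from 3.14 to 3.76 with odor and from 2.97 to 3.53 in vehicle (0.70 and 0.41, with no test, with the 95th percentile of negative controls as floor, chosen after seeing the data), and the pool as a replicate block (limma adjusted p = 5.5e-06 with odor and 8.06e-06 in vehicle) changed no call of a member. Across single members and comparisons, 443 of 450 alternative values stayed on the same side of the threshold, 0 lost a call and 7 gained one, and 30 changed sign with no call on either side. In vehicle 2 members were called under median centring (Cnga3 at -0.66), quantile normalization (Gucy2d at 0.45) and a trended robust prior (Car2 at 0.49), and 3 with centring on mature neuron markers (Gucy2d at 0.51, Car2 at 0.68). Leaving out single libraries gave 1 to 2 in vehicle. With odor 2 were called under median centring (Cnga3 at -0.38). Gucy2d and Cnga3 are at background. Median centring moved the median of all probe sets to -0.50 from -0.13 as deposited in vehicle, and with odor to -0.50 from -0.14.

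Over all probe sets, 4638 were called with odor, 15554 under median centring and 2070 after the filter on dim probe sets, which tested 7533. In vehicle 3851 were called, 15630 under median centring and 1510 after the filter. Median centring gave 1875 higher and 13679 lower with odor, against 2449 and 2189 as deposited, and 1762 and 13868 in vehicle, against 2260 and 1591. Centring on mature neuron markers gave 3353 higher and 658 lower with odor and 2719 and 625 in vehicle, and quantile normalization 2334 and 3300 with odor and 2148 and 2954 in vehicle. For the interaction 1 was called by limma, 0 with the replicate block (1092 at an unadjusted p below 0.05), and 1 to 2 without single libraries, the 2 without vehicle titled GFP+ replicate 4. For the odor response in titled GFP+, 2 were called, 1 with the replicate block, 0 under median centring, only the groups of the comparison, the trended robust prior, the filter or array weights (397 to 1065 at an unadjusted p below 0.05), and 0 to 6 without single libraries. The cause of these moves was not tested. The 95th percentile of negative controls as background left Pde2a above it in 8 libraries and Gucy1b2 in 0. Odor and vehicle libraries of the same sort and number also deviated together (r from 0.07 to 0.41, over 0.1 in 7 of 8), though the labels do not tie their numbers. With the number as a replicate block in the odor responses 0 of 5 members were called, and over all probe sets 1 in titled GFP+ and 5 in titled GFP- (4 without it). No member had a second probe set.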

Other observations

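Over all probe sets 11% were called higher with odor and 10.2% in vehicle. Of the marker lists not described above, Bowman's gland markers rose in 6 of 11 under each treatment, with Sox9 at 4.52 with odor and 4.60 in vehicle. The largest riser was Ltf, at 13.69 in odor titled GFP+ and 5.14 in odor titled GFP-, which is also counted among the neutrophil markers. Sox10 is counted here and among the ensheathing glia markers. Ensheathing glia markers rose in 2 of 8 under each treatment, with Apoe, also a macrophage gene, at 2.13 and 2.40 and Sox10 called at near-background signals, a call lost in vehicle with the pool as a block. Horizontal basal cell markers rose in 2 of 8 with odor and in 1 in vehicle, led by Cd44, which leukocytes carry too, at 3.71 and at least 32.4-fold. Of 9 vomeronasal neuron markers Meis2 was called higher under each treatment, at least 1.44-fold with odor, with vehicle too near background for a fold, and H2-M10.1, at background throughout, was called lower with odor.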
